A study of Mus musculus with 4 samples.

Results

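The transcripts of 6 Sox factors of neural progenitors and early neurons were examined at single adenosines in mouse retinal organoids, wild type (WT) and Mettl3 knockout (KO). The genes were Sox1, Sox2 and Sox3 of the SoxB1 group and Sox4, Sox11 and Sox12 of the SoxC group. Every listed site that fell inside the deposited start, end and strand of 1 of these 6 genes was taken, which gave 752 of the 881997 distinct sites in the 4 lists. WT lists held 232 and 216 of them and KO lists 224 and 242.

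Retinal organoids, tissue grown in culture that forms eye field and then retina, were collected after 4 days of differentiation. The WT group comprised 2 libraries of the Rx:GFP line, which carries a green fluorescent reporter of the eye field gene Rax. The KO group comprised 2 libraries of a Mettl3 KO Rx:GFP line that also carries an HA-tagged METTL3 transgene inducible by doxycycline. No treatment is recorded for either group, both were grown in the same serum-replacement medium with AGN, and all 4 libraries bear 1 batch label. Each library was made by GLORI, in which glyoxal and nitrite convert unmodified adenosine so that it is read as G, while N6-methyladenosine (m6A) is still read as A. The share of reads with A at a site is called its level. The labels do not say whether the 2 libraries of a genotype came from separate cultures, so p-values measure only the spread between these libraries, which may be technical.

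Sox proteins bind DNA through an HMG box, usually beside a partner such as a POU factor. SoxB1 proteins hold neuroepithelial cells in a dividing, undifferentiated state, and Sox2 is in addition a core factor of pluripotent cells and is required in retinal progenitors. SoxC proteins act as cells leave that state: they activate neuronal genes, and Sox4 and Sox11 are needed for retinal ganglion cells. METTL3 is the catalytic subunit of the complex that writes most m6A in mRNA, a mark that is frequent in long exons and around stop codons and is tied to mRNA turnover.

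A list held only sites with a coverage of at least 15 reads, at least 5 reads with A and a level of 0.1 or more, and the authors' own p reached at most 0.004. A site missing from a list could have been below these limits or thinly covered. The lists do not give the reason, and absence is not a level. The lists held 215850 to 288516 sites with a median coverage of 38 to 41 reads, and sites of the Sox genes were deeper, with medians of 102.5 and 129 reads in WT and 79 in each KO library. Mettl3 itself was covered at 1.01 and 0.801 times the median gene in WT against 1.16 and 1.04 in the KO, so its coverage does not check the genotype labels. On the log2 scale Mettl3 differed by 0.29 ± 0.18 (SE), which did not pass (limma, adjusted p = 0.348). The position of the lesion is not given in the labels, and reads of the transgene could not be told from those of the gene.

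The 6 genes lie on different chromosomes, in positions as the lists give them; the submitters' notes name mm10, but the positions did not match that build. Sox1 (ENSMUSG00000096014) is on chromosome 8 from 12445295 to 12450126, plus strand. Sox2 (ENSMUSG00000074637) is on chromosome 3 from 34704554 to 34706610, plus strand. Sox3 (ENSMUSG00000045179) is on chromosome X from 59934972 to 59937036, minus strand. These SoxB1 genes, like the SoxC genes, are each a single exon. Sox4 (ENSMUSG00000076431) is on chromosome 13 from 29132902 to 29137696, Sox11 (ENSMUSG00000063632) on chromosome 12 from 27384263 to 27392573 and Sox12 (ENSMUSG00000051817) on chromosome 2 from 152235531 to 152239983, all on the minus strand. The deposited intron mark stood on every entry in Sox1, Sox3, Sox4 and Sox11 and on none in Sox2 or Sox12, and was not used. Of 139 entries in Sox1, 126 had been deposited under Gm54672, an overlapping gene model of the same strand, and these transcripts cannot be told apart. This also holds for the gene coverage and unconverted share given for Sox1 below.

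Coverage of the transcripts was compared first, since it decides which sites can be listed. Sox2 was the only 1 of the 6 that passed the threshold, and it was lower in the KO. Its coverage stood at 12.1 and 12.6 times that of the median gene in WT and at 8.00 and 6.35 times in the KO. The genotypes did not overlap, and the log2 change was -0.79 ± 0.18 (SE; limma with Benjamini-Hochberg adjustment over 8297 genes, adjusted p = 0.0263). Over all genes tested 258 were called lower (3.11%) and 221 higher (2.66%), 5.77% in either direction, so 1 call in 6 genes is not a result about the group. The Sox2 call was lost without WT replicate 2 (adjusted p = 0.0928), without KO replicate 1 (0.0760) and without KO replicate 2 (0.154), while the log2 change ranged from -0.96 to -0.62 over all alternatives. In bulk RNA, fewer cells with Sox2 and less Sox2 RNA per cell cannot be told apart.

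The other SoxB1 genes showed no such difference. Sox1, among the earliest genes of the neural plate, had 2.08 and 2.43 times the median gene in WT and 2.09 and 1.94 times in the KO. The genotypes overlapped (log2 change -0.16 ± 0.17, SE, 95% interval -0.53 to 0.22; limma, adjusted p = 0.631). Sox3, an X-linked gene of the neural plate and hypothalamus, had 6.81 and 7.42 times in WT and 7.17 and 7.60 times in the KO, which overlapped. The log2 change of 0.05 ± 0.16 had a 95% interval of -0.31 to 0.41 (limma, adjusted p = 0.881), and the direction changed without centring and without WT replicate 1.

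Among the SoxC genes none passed the threshold. Sox4, an activator of neuronal and survival genes, stood at 5.99 and 6.92 times the median gene in WT and at 5.77 and 5.86 in the KO, where both libraries were lower. Its log2 change was -0.15 ± 0.17 (95% interval -0.51 to 0.22; limma, adjusted p = 0.642). Sox11, which drives neuronal differentiation, had 3.82 and 4.61 times in WT and 3.91 and 3.65 times in the KO, and Sox12, the weakest activator of the group, 5.42 and 6.46 against 5.42 and 5.74. These overlapped between genotypes, with log2 changes of -0.15 ± 0.17 and -0.09 ± 0.17 (limma, adjusted p = 0.646 and 0.806). KO values were both below the WT values in 2 of the 6 genes, Sox2 and Sox4, against 29.4% of all genes, and both above them in none, against 24.7%.

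**Figure D1:**
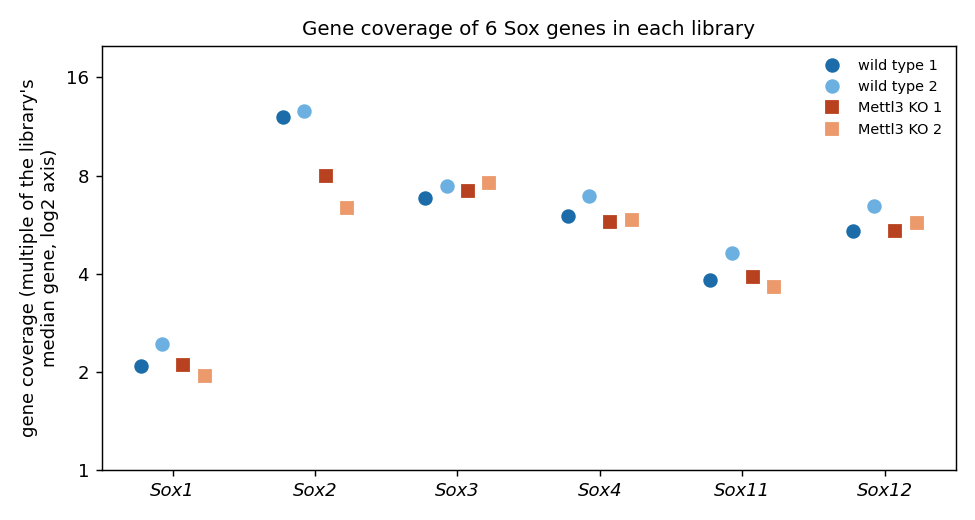
Gene coverage of the 6 Sox genes in each library, as a multiple of that library's median gene on a log2 axis; circles are WT and squares KO libraries. Sox2 falls from 12.1 and 12.6 to 8.00 and 6.35, while the points of Sox1, Sox3, Sox11 and Sox12 overlap between genotypes.

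Likeness to other genes was measured as the distance between log2 coverages over the 4 libraries. Nearest to Sox2 were Hspa5, Arf4 and Hnrnph1, at distances of 0.175, 0.236 and 0.242. Ptp4a2, Nucks1 and Spint2 were the 3 nearest genes of both Sox4 and Sox12. Sox1 was nearest to Kctd20, Ccdc50 and Elavl1, Sox3 to Sumo3 and Akirin2, and Sox11 to Slc7a5, Marcks and Gnpat.

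Other genes of the same pathway were read from lists. Of 13 other Sox genes 3 could be tested (Sox9, Sox13 and Sox21) and none passed; their median log2 change was 0.32, against -0.02 over all genes. Sox21, which opposes SoxB1 proteins at shared targets, had 1.88 and 2.12 times the median gene in WT and 3.14 and 2.94 in the KO (log2 change 0.61 ± 0.17, SE; limma, adjusted p = 0.0551). It passed in 1 of 9 alternatives, among genes at or above the median coverage (adjusted p = 0.0105), with a range of up to 0.289. Of 12 partner and progenitor genes 8 were tested, with a median of -0.09, and 1 rose. This was Hes5, a Notch target that holds progenitors undifferentiated, at 2.33 and 1.42 times in WT and 3.04 and 3.73 in the KO (log2 change 0.89 ± 0.23; limma, adjusted p = 0.0461, up to 0.346 without 1 library and past the threshold in 1 of 4 such fits). Of 8 neuronal genes linked to the SoxC group 4 were tested, with a median of -0.21, and 1 fell. Stmn2, a microtubule regulator of growing axons, fell from 1.05 and 1.08 times to 0.696 and 0.609 (log2 change -0.71 ± 0.17; limma, adjusted p = 0.0318), but passed in none of the 4 fits without 1 library (up to 0.156). Tubb3, a direct SoxC target, had 4.21 and 4.11 times against 3.81 and 3.51 (adjusted p = 0.542).

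Markers of the cells the organoids could hold differed with genotype. The eye field list had a summed coverage of 22.8 and 24.5 times the median gene in WT and 5.05 and 5.31 in the KO, over 3 tested genes of 6. Its called members were Six3 (log2 change -3.01) and Lhx2 (-2.81), both lower (limma, adjusted p = 8.62e-06 for each), and Pax6 did not pass. The pluripotent list summed to 4.67 and 5.12 in WT and 3.17 and 2.43 in the KO, with 2 of 3 tested genes lower, Pou5f1 and Utf1, out of 6 (limma, adjusted p = 0.0461 and 0.0100; past the threshold in 1 and 3 of 4 fits without 1 library). The part of either list in the lower Sox2 coverage was not tested. Neural progenitor genes Pax6, Nes, Vim, Cdh2, Msi1 and Notch1 had a gene coverage in all 4 libraries. Of 6 mesoderm genes T, Mixl1 and Mesp1 had no listed site in any library, and of 6 endoderm genes the same held for Sox17, Gata6, Afp and Cer1. No gene of these 2 lists could be tested. The neural crest sums were 0.616 to 0.772 over only 1 tested gene of 5. The midbrain and hindbrain sums were 1.75 to 2.29 over 2 tested genes of 6. The surface ectoderm sums were 3.35 and 3.31 in WT and 3.95 and 3.61 in the KO, with a median log2 change of 0.23 over 3 tested genes of 5. Its members did not go 1 way. Krt18 was lower (limma, adjusted p = 0.0411, lost in each fit without 1 library), while Cdh1 had 1.34 and 1.38 times the median gene in WT against 2.15 and 1.90 in the KO (adjusted p = 0.0678) and Epcam 1.01 and 0.982 against 1.12 and 1.21 (adjusted p = 0.436).

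The share of adenosine left unconverted over a whole transcript was taken from the deposited conversion value of the gene. Sox3 differed most between genotypes among the 6. Its unconverted share was 7.41% and 7.34% in WT and 2.88% and 3.65% in the KO. The difference was -4.11 percentage points against -0.63 for the median gene, and 131 of 8297 genes had a larger one in this direction. In WT Sox3 stood at the 97.7th percentile of all genes.

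In the others the difference was smaller. Sox1 had 4.90% and 4.85% in WT and 3.36% and 3.95% in the KO, and Sox2 had 4.65% and 4.22% against 3.20% and 3.73%. Sox4 had 3.94% and 4.18% against 2.40% and 2.94%, and Sox12 had 5.57% in both WT libraries against 4.36% and 4.87%. In each of these 4 genes, and in Sox3, the KO values were both below the WT values, which held for 50% of all genes. Sox11 overlapped, with 3.13% and 3.09% in WT and 2.30% and 3.27% in the KO. The median gene itself had 3.89% and 3.82% in WT and 2.83% and 3.37% in the KO.

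Relative to the median gene, the log2 odds of the unconverted share differed by -0.92 ± 0.15 in Sox3 (SE, 95% interval -1.33 to -0.51; limma, adjusted p = 0.332, range 0.125 to 0.833 over the alternatives). No gene passed this limma test, 0 of 8297 (0%), although 653 were lower (7.87%) and 412 higher (4.97%) at an unadjusted p under 0.05; of the 6 Sox genes Sox3 alone was. On this scale Sox4 differed by -0.30 ± 0.16, Sox1 by -0.11 ± 0.15 and Sox2 by -0.04 ± 0.16. Sox11 and Sox12 differed by 0.14 ± 0.17 and 0.04 ± 0.15, and both turned negative, -0.19 and -0.29, without centring.

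**Figure D2:**
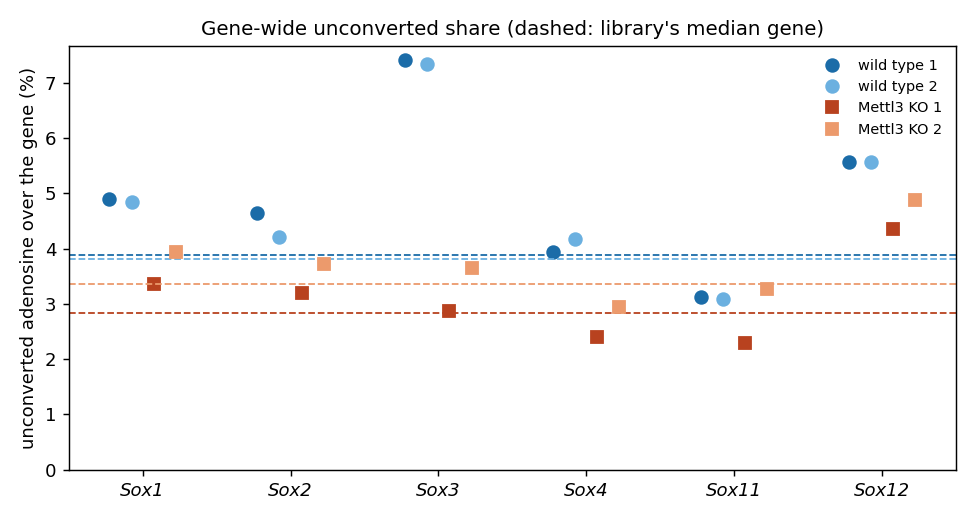
Share of adenosine left unconverted over each of the 6 genes, in percent, per library; dashed lines mark the median gene of each library. Sox3 stands at 7.41% and 7.34% in WT and at 2.88% and 3.65% in the KO; Sox11 overlaps between genotypes.

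Well covered sites with high levels were found mainly in WT. With a coverage of at least 100 reads and a level of at least 0.3, the 6 genes together gave 21 and 20 WT sites against 4 and 1 in the KO. Raising the level to 0.5 left 12 and 11 against 0 and 0. The exact two-sided permutation p was 0.333 for each, the smallest that 2 against 2 libraries can give. Over all genes the same limits gave 4364 and 6245 against 1038 and 1298 sites, and 2007 and 2740 against 146 and 212. Coverage differed too: 121 and 137 Sox sites reached 100 reads in WT and 81 and 83 in the KO. At any coverage, sites with a level of at least 0.3 numbered 51 and 43 in WT and 32 and 35 in the KO.

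By gene, Sox4 had 7 and 4 of the well covered sites at 0.3 or more in WT and none in the KO. Sox11 had 5 and 7 against 0 and 1, and Sox3 had 3 and 6 against 1 and 0. The exact permutation p was 0.333 in each of these 3 genes, and such sites were also fewer in the KO over all genes. Sox1 had 2 and 3 against 2 and 0, Sox2 3 and 0 against 0 and 0, and Sox12 1 and 0 against 1 and 0, all overlapping.

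**Figure D3:**
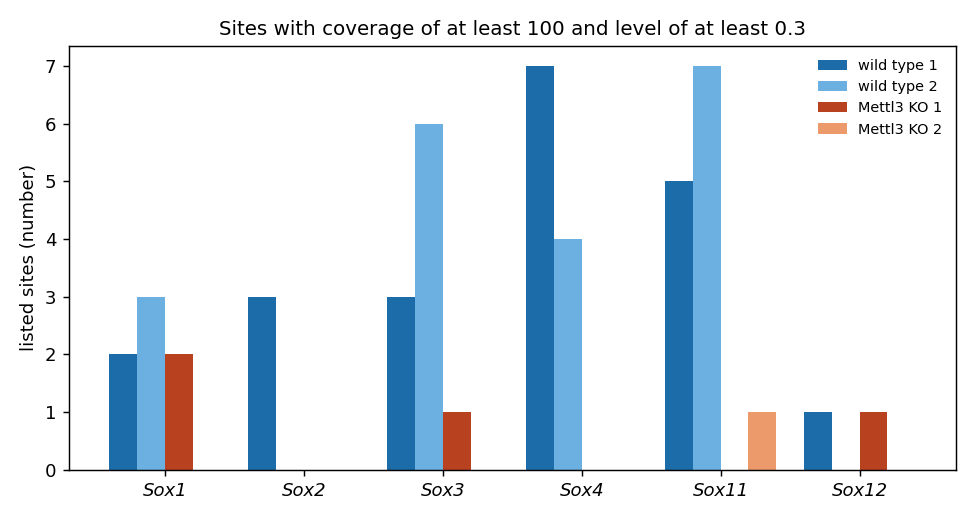
Number of listed sites with a coverage of at least 100 reads and a level of at least 0.3 in each Sox gene, per library; bars start at 0. Sox4 has 7 and 4 such sites in WT and none in the KO, and Sox12 has at most 1 in any library.

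The sites themselves are described by gene, with the level and coverage in each library. Where a site was missing from a KO list, the coverage expected there was computed from its WT coverage and the gene's coverage in both genotypes. A high and well covered site could also be missing from the other list of its own genotype. Of the 21 sites of WT replicate 1 with at least 100 reads and a level of at least 0.3, 4 (19.0%) were not in the list of WT replicate 2, and of the 20 of WT replicate 2, 6 (30%) were not in that of WT replicate 1. From the KO lists 15 to 19 of these sites were missing, 75% to 90.5%, and over all sites the shares were 26.4% and 35.9% within WT and 90.1% to 91.6% in the KO. Absence from 1 list therefore occurs without a difference in genotype. At Sox sites that were listed in the KO, the listed coverage was 0.901 times the expected one in KO replicate 1 (median of 9 sites, range 0.493 to 1.45) and 0.968 times in KO replicate 2 (16 sites, 0.641 to 1.45).

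In Sox3, 2 sites toward the end of the gene were nearly fully unconverted in both WT libraries. The site at 59935308, 336 bases before the gene's end, had levels of 0.972 in 1287 reads and 0.960 in 1763 reads. It was in neither KO list, with expected coverages of 1510 and 1390 reads. The site at 59935496, 524 bases before the end, had 0.981 of 207 and 1.00 of 578 reads in WT and 0.106 of 529 reads in KO replicate 1. It was not in the list of KO replicate 2 (345 reads expected). A further site between them, 59935335, had 0.971 of 1293 reads in WT replicate 2 and was in no other list, that of WT replicate 1 included. At both shared sites the WT levels were close to 1, and the 1 KO level on record was close to the list's limit. The sites at 59935722 (0.446 and 0.734) and 59935624 (0.246 and 0.290) were in both WT lists and in neither KO list, with at least 117 and 435 reads expected. The KO libraries shared a site of their own at 59935567, with 0.163 of 160 and 0.127 of 71 reads.

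In Sox1 the 3 highest sites of both WT lists lay in the first 1128 bases of the gene model. The site at 12446146 had 0.808 of 261 and 0.822 of 415 reads in WT and was in neither KO list (306 and 247 reads expected). Its neighbour at 12446126 had 0.789 of 114 and 0.646 of 195 reads and was also in neither KO list (139 and 112 expected). The site at 12446422 was listed in the KO as well: it had 1.00 of 60 and 0.661 of 59 reads in WT and 0.457 of 81 reads in KO replicate 1. Less well covered or less reproducible were 12446365 (0.580 and 0.136), 12447376 (0.741 and 0.316) and 12449193 (0.238 and 0.529), all in neither KO list. No Sox1 site was shared by KO replicate 2 and a WT library.

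Sox2 had no site with a mean level of at least 0.3 in both WT libraries. Its highest shared WT sites were at 34706135 (0.309 of 269 and 0.258 of 275 reads), 34705812 (0.384 of 398 and 0.144 of 369) and 34706604 (0.250 of 24 and 0.273 of 33). The deepest was at 34705848, with 0.129 of 1473 and 0.106 of 2264 reads, and 34706512 had 0.123 of 446 and 0.133 of 384. These 5 sites were in neither KO list and all lay in the last 798 bases of the gene. The KO libraries shared 34704640 alone, 87 bases from the start, with 0.270 of 74 and 0.554 of 65 reads. Of 73 entries in Sox2, 12 had been deposited under another gene, Gm54566. A further 24 entries lay within 500 bases upstream of the deposited start of Sox2 and were not counted.

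In Sox4 the site at 29135387 was the highest well covered one. It had 0.927 of 703 and 0.971 of 1012 reads in WT and 0.115 of 479 reads in KO replicate 2, and was not in the list of KO replicate 1 (751 expected). The site at 29134354 had 0.644 of 160 and 0.604 of 212 reads in WT and 0.108 of 111 in KO replicate 2. The same pattern held at 29135014, with 0.263 of 243 and 0.265 of 698 in WT and 0.129 of 311 in KO replicate 2. At these 3 sites the KO level was below both WT levels. The sites at 29134501 (0.318 and 0.368) and 29134253 (0.358 of 1011 and 0.288 of 1678 reads) were in neither KO list, with at least 331 and 1029 reads expected. The site at 29134656 had 1.00 of 46 and 0.596 of 57 reads and was in neither KO list, where 46 and 40 reads were expected. The site at 29134831 had 0.853 of 184 reads in WT replicate 2 alone. Of the 3 other sites in 3 lists, 29135876 had 0.155 and 0.106 in WT and 0.179 in KO replicate 2. Those at 29137320 and 29134039 were in both KO lists and in that of WT replicate 2, with levels of 0.167 against 0.130 and 0.313, and 0.117 against 0.132 and 0.100.

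Sox11, the longest of the 6, carried the most shared sites, 24 between the WT libraries. The highest was at 27385944, with 0.746 of 394 and 0.912 of 559 reads, in neither KO list although 435 and 352 reads were expected. The site at 27385666 had 0.401 of 252 and 0.397 of 204 reads and was also in neither (218 and 176 expected). The sites at 27385019 (0.706 of 119 and 0.422 of 109), 27388695 (0.527 of 55 and 0.510 of 49) and 27387754 (0.261 of 46 and 0.568 of 88) were in neither KO list as well. At 27390535 the levels were 0.360 of 114 and 0.421 of 235 reads in WT and 0.121 of 174 in KO replicate 2. Not every site went this way. The site at 27392541, 33 bases from the start, had 0.221 and 0.180 in WT and 0.327 in KO replicate 2, and 27386149 had 0.105 and 0.140 against 0.234.

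Sox12 had the fewest high sites with good coverage, and 5 of its 7 WT-shared sites were listed in the KO too. The site at 152239160 had 0.950 of 20 and 0.580 of 88 reads in WT and was in neither KO list, where 45 and 41 reads were expected. The site at 152236867 had 0.805 of 231 reads in WT replicate 1 and 0.130 of 123 in KO replicate 2, and was not in the list of WT replicate 2. The site at 152238177 was the deepest of the sites in more than 1 list, with 0.243 of 2433 and 0.259 of 2895 reads in WT and 0.234 of 2181 and 0.290 of 2087 in the KO. Its levels overlapped between genotypes. The sites at 152238579 (0.101, 0.113 and, in KO replicate 2, 0.104) and 152238417 (0.138, 0.129 and 0.100) were in 3 lists. The site at 152238527 (0.135 and 0.125) was in both WT lists alone, and 152239663 (0.270 of 37 and 0.256 of 39 reads) in both KO lists alone.

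**Figure D4:**
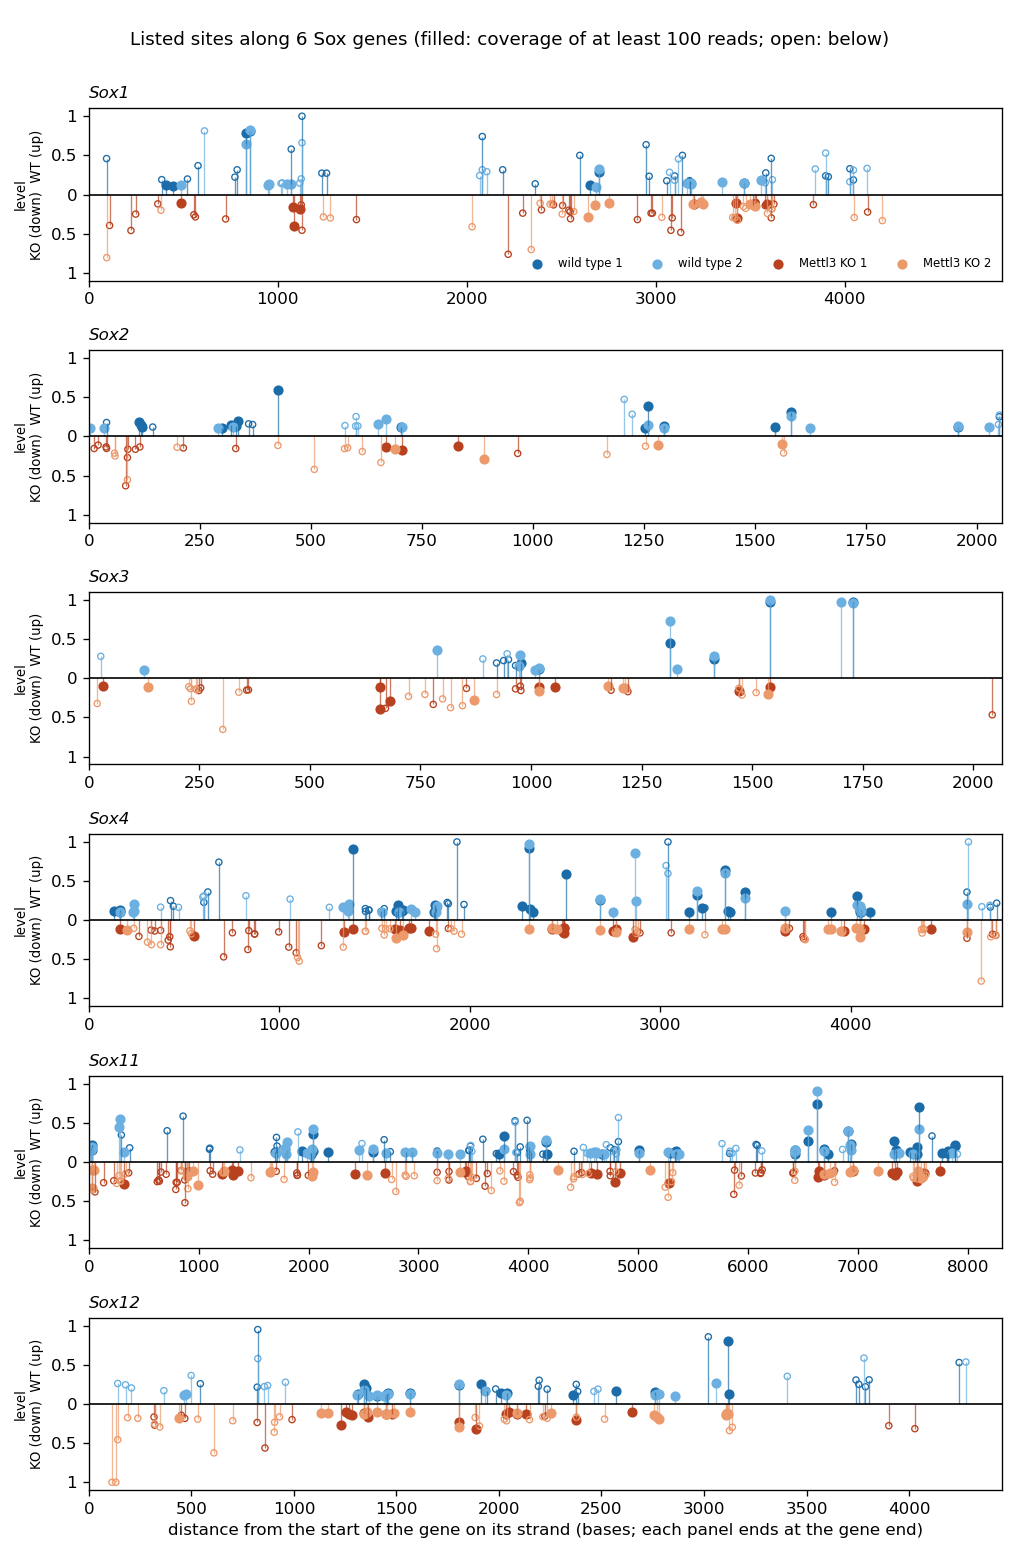
Listed sites along each of the 6 genes by distance from the gene's start in bases, with the level upward for WT and downward for KO libraries; filled circles have at least 100 reads. Filled circles near 1 occur in WT of Sox3 and Sox4, while the filled KO circles all lie below a level of 0.5.

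Few sites recurred, in the Sox genes as elsewhere. Of the 752 sites 617 (82.0%) were in 1 list, 115 in 2, 13 in 3 and 7 in all 4. Between the WT libraries 65 sites were shared, 28.0% and 30.1% of their Sox sites, against 12.6% and 9.94% over all genes. The KO libraries shared 21, 9.38% and 8.68% of theirs, against 5.16% and 5.50% over all genes. Across genotypes KO replicate 2 shared 35 Sox sites with WT replicate 1 (14.5% of its sites) and 33 with WT replicate 2 (13.6%). These were more than it shared with KO replicate 1. Over all genes its shares were 5.38% with WT replicate 1, 6.08% with WT replicate 2 and 5.50% with KO replicate 1. Sox4, Sox11 and Sox12 held 11 each of those shared with WT replicate 1, and 11, 14 and 7 with WT replicate 2. In Sox1 and Sox2 it shared 0 with either WT list. KO replicate 1 shared 20 and 22 with the WT libraries. By gene, 50% and 33.3% of the Sox3 sites of WT replicates 1 and 2 were in both WT lists. The shares were 32.4% in each library in Sox1, 29.3% and 32.0% in Sox11, and 25% and 33.3% in Sox4. Sox2 had 25% and 23.8%, and Sox12 20.6% and 21.9%. The part of coverage in this sharing was not tested.

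Of the WT-shared sites with at least 20 reads in each library, 45 of 63 were in neither KO list (71.4%, Wilson 95% interval 59.3% to 81.1%). Over all genes this held for 83% of 22696 sites. With an expected KO coverage of at least 50 reads it held for 37 of 54 Sox sites (68.5%) against 81% over all genes, and with a mean WT level of at least 0.3 for 16 of 21 (76.2%) against 86.1%. In the reverse direction, 12 of 20 KO-shared Sox sites (60%, interval 38.7% to 78.1%) were in neither WT list, against 72.1% over all genes. By gene the WT count was 8 of 9 in Sox1, 5 of 5 in Sox2, 3 of 5 in Sox3, 8 of 13 in Sox4, 19 of 24 in Sox11 and 2 of 7 in Sox12. KO replicate 2 listed 16 of the WT-shared sites and KO replicate 1 listed 9. With 1 KO list left out, absence is from the other alone, so the share can only stay or rise. It was 85.7% without KO replicate 2. Intervals here cover counting error only, since reads can be PCR copies and sites of 1 gene share its coverage.

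**Figure D5:**
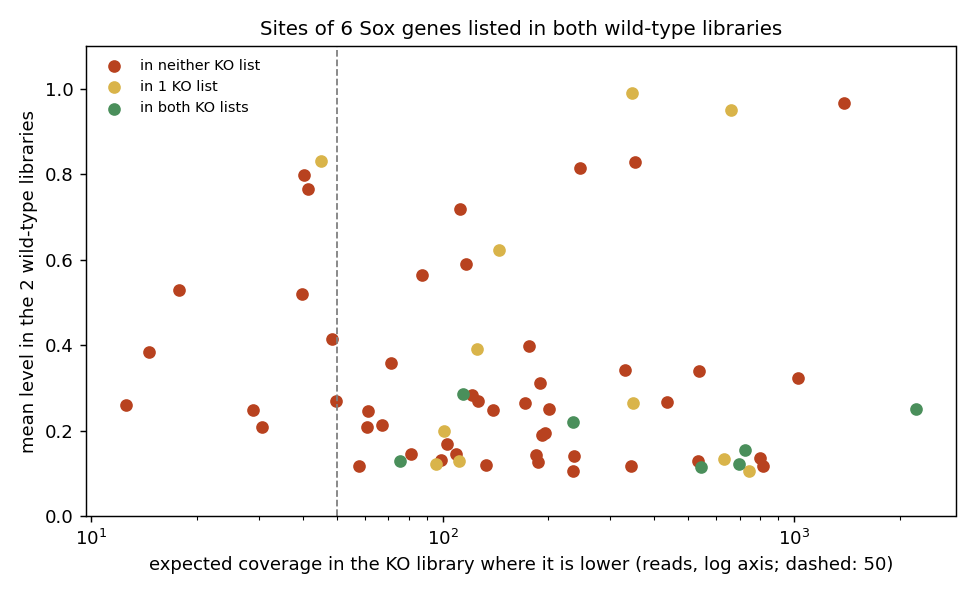
Sites of the 6 genes in both WT lists, by the expected coverage in the KO library where it is lower (reads, log axis) and the mean WT level; the dashed line marks 50 reads. Sites in neither KO list occur up to an expected coverage of 1390 reads and a mean level near 1.

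The level could be tested in both genotypes only at the 7 sites in all 4 lists. None of the 7 passed the edgeR quasi-likelihood test, against 41 of 1557 such sites over all genes (2.63%), all 41 lower in the KO. At an unadjusted p under 0.05 edgeR had 90 sites lower (5.78%) and 29 higher (1.86%), 1 of them a Sox site, and limma on log2 odds called 30 lower and 1 higher, with no Sox site among its calls. The lowest p among the Sox sites was at 152238643 in Sox12, with levels of 0.260 and 0.179 in WT and 0.122 and 0.130 in the KO (edgeR, adjusted p = 0.420). The KO levels there were both below the WT levels. At another Sox12 site, 152238535, the order was the opposite: both KO levels, 0.133 and 0.131, lay above the WT levels of 0.117 and 0.112 (edgeR, adjusted p = 0.863). How often the genotypes separate in this way over all 1557 such sites was not counted, so neither order is a result about the Sox genes. The remaining 5 sites overlapped between genotypes, among them the deep Sox12 site 152238177 described above (edgeR, adjusted p = 0.988). The Sox4 site at 29133086 had 0.359 and 0.212 against 0.231 and 0.151. The Sox3 site at 59936019 had 0.117 and 0.129 against 0.109 and 0.156, and the Sox11 sites at 27385884 and 27389404 had 0.167 and 0.142 against 0.163 and 0.157, and 0.141 and 0.118 against 0.130 and 0.236. A site enters this test only if its KO level is at least 0.1, so it does not cover the sites that left the KO lists.

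The number of listed sites was compared whatever their level. Sox3 had 10 and 15 WT against 21 and 24 KO sites (log2 change 1.04, edgeR, adjusted p = 0.230). Counting only levels of at least 0.3, it had 3 and 7 against 4 and 4, which overlapped, and the log2 change was 0.12. The median level of its listed sites was 0.233 and 0.290 in WT and lower in the KO, 0.151 and 0.189. Over all sites this median was lower in the KO too, at 0.246 and 0.241 in WT and 0.213 and 0.232 in the KO. In Sox4 it was also lower in both KO libraries, in Sox2 and Sox11 it was higher in both, and in Sox1 and Sox12 the genotypes overlapped. Sox2 had 20 and 21 sites against 15 and 17, and Sox11 82 and 75 against 73 and 72. Scaled to the listed sites of each library, the Sox11 log2 change was 0.07, of the opposite sign (edgeR, adjusted p = 0.944). Sox1 had 34 and 34 against 41 and 30, Sox4 52 and 39 against 48 and 53, and Sox12 34 and 32 against 26 and 46. None of the 6 passed the edgeR test, against 270 of 10411 genes (2.59%; 1.46% lower and 1.13% higher). At an unadjusted p under 0.05 edgeR had 1 Sox gene, Sox3, and 789 genes lower (7.58%) and 672 higher (6.45%) in all; DESeq2 called none of the 6. Summed over the genes, WT libraries had 224 ± 11.3 and KO libraries 233 ± 12.7 listed sites (SD over 2 libraries; p = 0.667, exact permutation test).

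Positions along the genes were compared last. Sites in both WT lists lay in the second part of the gene, past its midpoint, in 5 of 5 cases in Sox2, 4 of 5 in Sox3, 9 of 13 in Sox4, 12 of 24 in Sox11, 6 of 11 in Sox1 and 0 of 7 in Sox12. Over the 6 genes 36 of 65 such sites (55.4%) and 261 of 617 sites in 1 list (42.3%) were past the midpoint. In Sox2, KO replicate 1 listed none of its 15 sites past the midpoint and KO replicate 2 listed 5 of 17, against 7 of 20 and 10 of 21 in WT. Some listed sites lay close together. In a library 16.7% to 23.3% of Sox sites had another within 5 bases, against 14.2% to 17.6% of all sites. The ranges overlapped, and by gene and library the share ran from 0% to 38.1%. The part of the deeper coverage of Sox sites was not tested.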

How the data were processed

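Per the labels' protocols, GLORI libraries were made from poly(A) RNA. The authors deposited 1 site list per library, and no libraries were pooled. The lists give, per the file headers, counts of reads with A or G and with A at each site, their fraction (the level), a p-value of the authors, and the coverage signal and conversion fraction of its gene. The aligner and site caller are not given in the sources used here. The submitters' processing notes name mm10, but of 3360 sites in GRCm38 promoter windows on the same strand only 776 (23.1%) stood on an A, so coordinates are printed as deposited, the build is not settled and no sequence is shown.

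Value pairs that spanned a chromosome were read as chromosome-wide and left out, as were genes with several values. This reading, the 6 genes, all lists, limits and the 5-base window were chosen with earlier results of these data known. The test of the unconverted share was added after its values were seen.

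Gene coverage (log2, centred on the median gene, no pseudocount) and log2 odds of the unconverted share were tested with limma 3.58.1, and listed-site counts (at least 10 in all lists) and levels (coverage of at least 20) with edgeR 4.0.16 in R 4.3.3, at an adjusted p of 0.05. These tests were checked on simulated data with planted changes larger than the differences tested in the Sox genes. The check therefore does not cover changes as small as those. Expected KO coverage was the mean WT ratio of site to gene coverage times the KO gene coverage. Named were the 6 genes, list members past the coverage threshold (at most 4 per list), the 3 nearest genes of each, the 6 highest sites per gene that both libraries of a genotype shared, and all sites in 3 or 4 lists; Sox21, Tubb3, Pax6, Cdh1, Epcam, list members with no listed site and 3 high sites missing from 1 WT list were named after their values were seen, and 1 gene that the rule would name is not reported here. Alternatives were DESeq2 1.42.0, other filters and normalizations, and leaving out each library. Replicate numbers did not pair the samples (correlation of deviations -0.03 for the same number and 0.03 for the other, over 8297 genes).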

Additional observations from a re-analysis of the deposited data

How the results depend on the processing

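The Sox2 coverage change kept its direction under all 9 alternatives and passed in 6. Leaving out 1 library gave 0 to 1 coverage calls among the 6 genes, and 74.6% to 85.7% for WT-shared sites in neither KO list. The sum of listed Sox sites was 9 higher in the KO, but differed by -13.5 with a level of at least 0.3 (exact permutation p = 0.333) and by -18.5 with a coverage of at least 50. Among genes at or above the median coverage Sox21 gained a call (adjusted p = 0.0105). The counts of calls among the 6 genes on listed sites, levels and the unconverted share did not move under any alternative run.

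Differences that had not passed a test turned sign as follows, and the cause was not tested. Without centring, Sox3 coverage was -0.058, and the unconverted share of Sox11 and Sox12 -0.19 and -0.29; among genes at or above the median coverage Sox12's was -0.0031. With a level of at least 0.3, listed sites differed by -0.042 in Sox1, -0.26 in Sox4 and -0.12 in Sox11. With a coverage of at least 50 they differed by -0.18 in Sox11. The Sox3 log2 change in listed sites kept its sign, but was 0.12 in place of 1.04 with a level of at least 0.3. Over the 4 fits without 1 library, coverage ranged from -0.0090 to 0.11 in Sox3 and from -0.21 to 0.041 in Sox12. The unconverted share ranged from -0.10 to 0.019 in Sox2 and from -0.0017 to 0.088 in Sox12. Listed sites ranged from -0.16 to 0.30 in Sox11, from -0.022 to 0.73 in Sox4 and from -0.20 to 0.72 in Sox12. Log2 odds ranged from -0.075 to 0.20 at 27385884, from -0.13 to 0.29 at 152238177 and from -0.19 to 0.41 at 59936019.

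Over all genes, 479 coverage calls became 744 among genes above the median coverage and 18 to 402 without 1 library. The 270 calls on listed sites became 26 with a level of at least 0.3, 79 with a coverage of at least 50, 40 with DESeq2, 137 with the replicate block and 55 to 244 without 1 library, and the 41 on levels 27 to 43 without 1 library. With the replicate number as a block, coverage had 1 Sox call and 542 in all, levels 55 in all, and the block changed no other Sox call.

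With 2 libraries a genotype, a p that misses the threshold does not show that levels were alike. Of the 63 WT-shared Sox sites, 54 had an expected KO coverage of at least 50 reads in both libraries.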
